A study of Mus musculus with 6 samples.

Results

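Pericytes are the contractile and supporting cells that sit on the outer wall of capillaries and small vessels. In fetal mouse gonads at E15.5, 750 of 39350 cells that passed the cell filter (1.91%) met a rule for pericytes. They were chosen by their measured levels of 10 genes. The rule took cells with at least 5 UMIs (unique molecular identifiers, each counting 1 captured mRNA molecule) of *Rgs5*, at least 3 UMIs of *Kcnj8*, *Cox4i2* and *Ndufa4l2* together, and no more than 2 detected genes of *Pecam1*, *Cldn5*, *Cd93*, *Flt1*, *Esam* and *Plvap*, which are endothelial. The cell filter kept barcodes of over 2500 and under 9000 genes whose mitochondrial UMIs were under 25% and whose *Hbb* UMIs were under 20%. Of cells meeting the rule, a further 35 failed this filter and were left out. The rule therefore fixes the levels of these 10 genes, which are given as values with no test. At its edges, 59 members held 5 UMIs of *Rgs5* and 68 cells that otherwise met the rule held 4. At the second edge, 15 members held 3 UMIs of the 3 genes together and 12 further cells held 2. The number of detected endothelial genes was 2 in 239 members, and 51 further cells had 3.

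The cells came from droplet sequencing of single cells (10x Genomics) in 3 groups with 2 libraries each. Control XY gonads were testes with both wildtype alleles of *Amh* and *Inhbb*, dKO XY gonads lacked both genes (*Amh*-/-;*Inhbb*-/-), and control XX gonads were ovaries wildtype for both. All 3 groups came from E15.5 embryos, on a C57BL/6 background per the methods of the study. The null alleles are in the germline, so the dKO XY pericytes developed in a gonad where every cell lacked both genes. *Amh* encodes anti-Müllerian hormone, and *Inhbb* the subunit that forms activin B, and both are made by Sertoli cells of the fetal testis. The members of control XX were compared with those of control XY, to describe pericytes of ovary and testis, and those of dKO XY with each control. The 3 comparisons share libraries (control XY enters 2 of them, and so do dKO XY and control XX), so they are not independent of each other.

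Pericytes are recruited to new vessels by PDGF-B from endothelial cells, which acts on the receptor PDGFRB, and they share a basement membrane with the endothelium. Notch3, which responds to the endothelial ligand Jag1, maintains mural cells, the cells of the vessel wall that include pericytes and smooth muscle. The ATP-sensitive potassium channel of pericytes consists of the pore encoded by *Kcnj8* and the sulfonylurea receptor encoded by *Abcc9*. In the fetal testis, endothelial cells move in from the mesonephros and build an arterial supply, and cells beside the vessels contribute to the interstitium. The fetal ovary does not form this artery.

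The 6 libraries held between 29 and 214 pericytes with 717584 to 5337864 UMIs in sum, so that control XX values rest on fewer molecules than the others. Median UMIs per pericyte were between 19511 and 23948.5, and median genes between 4650 and 5112.5. *Amh*, deleted in dKO XY, was at 102 and 174 UMIs per 1000000 UMIs (CPM) in all kept cells of control XY, 9.02 and 11.2 CPM in dKO XY, and 0.824 and 0.481 CPM in control XX. *Inhbb* was at 19.3 and 31.3 CPM for control XY, 11.7 and 17.8 CPM for dKO XY, and 24.5 and 8.25 CPM for control XX, so both dKO XY libraries lay below both control XY libraries, while control XX overlapped both groups. Which part of *Inhbb* the null allele lacks is not given in the sources used here, so these reads do not check its knockout. The 4 Y-linked genes listed summed to 164 to 176 CPM in the pericytes of the XY libraries and 0 in control XX, and *Xist*, *Tsix* and *Eif2s3x* were higher in control XX, in keeping with the labels. No sequencing or dissociation batch is given in the sources used here. Between 22 and 74 cell barcodes were shared by any pair of libraries, and 0 by members. A doublet score in the top 8% of its library was held by 97 of the 750 members, 4.84% to 17.4% of a library's pericytes.

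The identity of these cells was checked on 18 further pericyte markers that the rule did not use, which summed to 2376 to 3941 CPM in the pericytes of the 6 libraries, against 293 to 741 CPM in all other kept cells. *Pdgfrb*, the receptor through which pericytes are recruited, had a UMI in 95.2% to 100% of pericytes. It was seen in 0.901% to 20.7% of endothelial-gated cells (at least 4 of the 6 endothelial genes detected, *Rgs5* under 2 UMIs) of the same libraries and in 51.9% to 75.1% of *Pdgfra*-gated cells, which stand for the interstitial stroma (*Pdgfra* at least 3 UMIs, *Rgs5* under 2 UMIs, few endothelial genes, *Cyp17a1* and *Hsd3b1* together under 5 UMIs). *Higd1b*, a partner of the respiratory chain found in pericytes, had a UMI in 24.6% to 59.7% of pericytes, and in 0% to 0.741% of endothelial-gated and 0% to 0.232% of *Pdgfra*-gated cells. Median depths were between 19511 and 23948.5 UMIs in pericytes, 24124 and 40772 in endothelial-gated cells and 17104.5 and 25703 in *Pdgfra*-gated cells. The label thus fits the data on genes that the rule left free, set against the other kept cells. Smooth muscle cells of the vessel wall were not gated as a class, so this check does not set pericytes apart from them.

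Genes with the highest ratio to all other kept cells, at 50 CPM or more in the pericytes of every library, describe the chosen cells further. After the rule's *Rgs5*, with a ratio of at least 77.8 in each library, came *Map3k7cl* (46.5), *Lgi1* (39.4), *Ndufa4l2* (33.1) and the unnamed gene *RP23-375N21.2* (25.4). They were followed by *Cox4i2*, *Kcnj8*, the collagen receptor subunit *Itga1* (17.9), *Tm4sf1* (13.5), *Abcc9* (12.2), *Mndal* and *Aspn*. The other 8 of the top 20 were the Notch-regulated *Nrarp* (8.68), the forkhead factor *Foxc1* (8.61), the adhesion molecule *Mcam* (8.26), *Frem2*, *Crip1*, *Sept4*, the transcription factor *Ebf1* (6.16) and the proteoglycan *Cspg4* (6.02), known as NG2. These ratios describe the chosen cells and carry no test. *Mcam* was at 117 to 141 CPM in pericytes and 113 to 147 CPM in endothelial-gated cells. For *Nrarp* these ranges were 67.1 to 129 and 82.5 to 148 CPM, and for *Tm4sf1* 264 to 442 and 278 to 323 CPM. The levels of these genes thus do not set pericytes apart from endothelial-gated cells.

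The rule genes themselves lay at different levels in the 3 groups. *Rgs5* (GRCm38 chromosome 1, 169655501 to 169695813, plus strand), a regulator that shortens G protein signalling, was at 1024 and 925 CPM for control XY, 855 and 773 CPM for dKO XY, and 616 and 603 CPM for control XX. *Kcnj8* (chromosome 6, 142564837 to 142571614, minus strand) was at 208 and 168 CPM for control XY, 150.5 and 172 CPM for dKO XY, and 386 and 278 CPM for control XX. Its partner *Abcc9* lies beside it on the same strand (chromosome 6, 142587862 to 142702315). *Cox4i2* (chromosome 2, 152754173 to 152765037), the oxygen-responsive isoform of a cytochrome oxidase subunit, was at 371 and 315 CPM for control XY, 286 and 269 CPM for dKO XY, and 341 and 368 CPM for control XX, and *Ndufa4l2* (chromosome 10, 127514967 to 127517154) at 551 and 466 CPM for control XY, 492 and 436 CPM for dKO XY, and 716 and 782 CPM for control XX. *Rgs5* was lower and *Kcnj8* and *Ndufa4l2* were higher in both control XX libraries than in any XY library, while for *Cox4i2* the 2 control groups overlapped and both dKO XY libraries lay below them.

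Pericytes were 0.544% and 1.30% of the kept cells of the ovary libraries, against 2.05% to 2.50% in the XY libraries. By library, they were 140 of 6818 (2.05%, 95% Wilson interval 1.74 to 2.42) and 214 of 8569 cells (2.50%, 2.19 to 2.85) in control XY, and 167 of 8151 (2.05%, 1.76 to 2.38) and 138 of 5701 (2.42%, 2.05 to 2.85) in dKO XY. In control XX they were 29 of 5330 (0.544%, 0.379 to 0.780) and 62 of 4781 (1.30%, 1.01 to 1.66). Both control XX shares lay below all 4 XY shares, and the 2 control XX libraries differed from each other beyond their counting intervals. The group means were 2.28% ± 0.314 (SD, n = 2) for control XY, 2.23% ± 0.263 for dKO XY and 0.920% ± 0.532 for control XX. With 2 libraries against 2 the smallest two-sided p of an exact permutation test is 0.333, and the comparisons of control XX with control XY and with dKO XY both gave that value. The dKO XY mean differed from that of control XY by -0.0407 percentage points (exact permutation p = 0.667). A share of dissociated cells depends on how well each cell type survives dissociation and freezing, and on the size of the other cell types. The intervals cover counting error only.

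**Figure D1:**
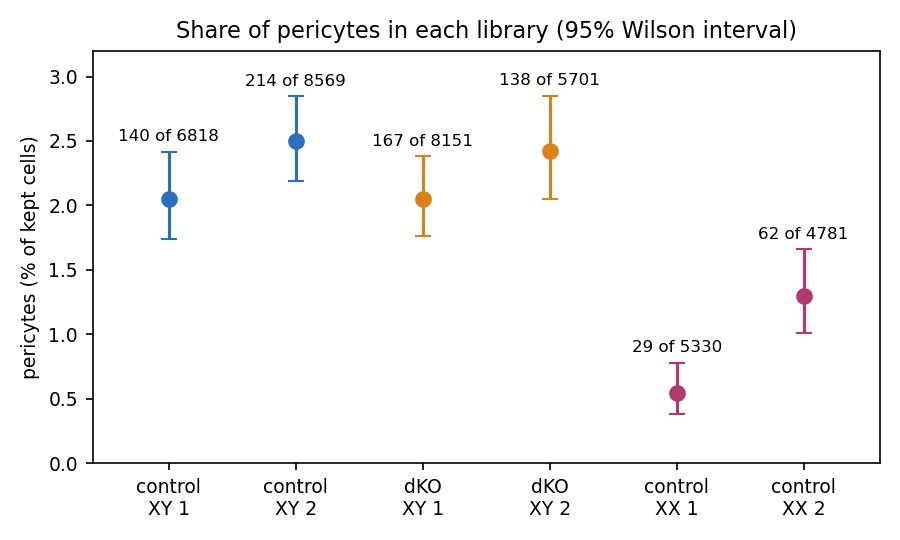
Pericytes as a percent of kept cells (vertical axis) in each library by group (horizontal axis: control XY, then dKO XY, then control XX), with 95% Wilson intervals as bars. The 4 XY libraries lie between 2.05% and 2.50%, and the control XX libraries at 0.544% and 1.30%.

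Within a library, pericytes differed widely in smooth muscle transcripts. In cells thinned to 10000 UMIs, the sum of *Acta2*, *Myh11* and *Tagln* ranged from 0 to 260 UMIs in control XY, from 0 to 212 UMIs in dKO XY and from 0 to 52 UMIs in control XX. The library medians were 7 and 6.5 UMIs for control XY, 13 and 7 UMIs for dKO XY, and 1 and 5 UMIs for control XX. A cell with at least 20 such UMIs is called contractile-high here. This class is a range on a continuous score, and 115 of 720 members lay between 10 and 19 UMIs and 122 between 20 and 49. Contractile-high cells were 27.0% (95% Wilson interval 20.3 to 35.0) and 27.5% (21.8 to 33.9) of the thinned pericytes in control XY, and 39.4% (32.1 to 47.1) and 21.97% (15.8 to 29.8) in dKO XY. In control XX they were 3.45% (0.611 to 17.2), which is 1 cell, and 13.8% (7.16 to 24.9), which is 8 cells. Without thinning the shares were 47.1% and 42.5%, 55.7% and 47.1%, and 20.7% and 35.5%. Both control XX libraries were below all XY libraries on either scale. Cells of 100 UMIs or more of these genes numbered 6 and 9 for control XY, 12 and 2 for dKO XY, and 0 for both control XX libraries.

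**Figure D2:**
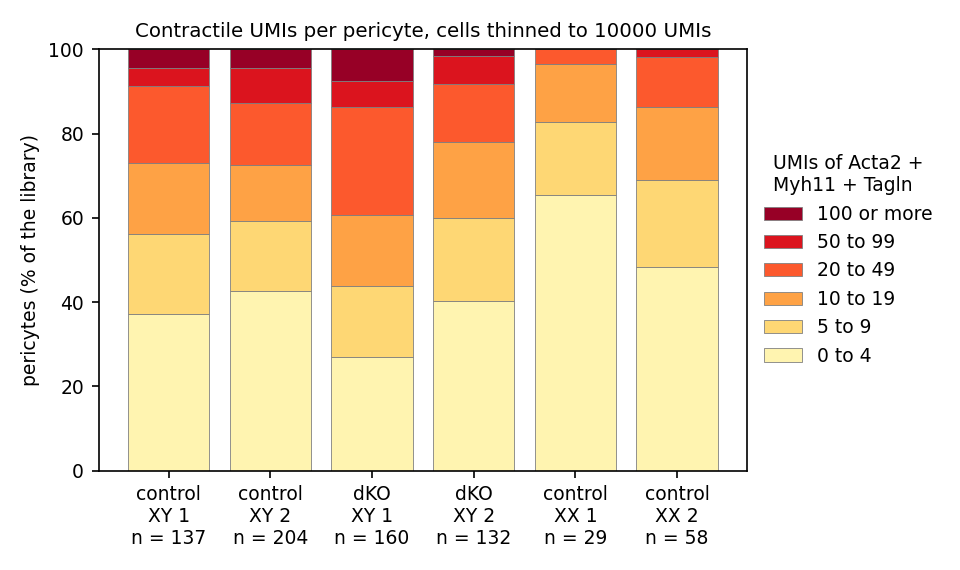
Percent of pericytes (vertical axis) in each library (horizontal axis) by the summed UMIs of *Acta2*, *Myh11* and *Tagln* after thinning to 10000 UMIs, stacked from 0 to 4 UMIs up to 100 or more. Cells of 0 to 4 UMIs made up 26.9% to 42.6% of the XY libraries and 65.5% and 48.3% of the control XX libraries.

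Some further genes also differed in level between contractile-high cells and other pericytes. In all 4 XY libraries, contractile-high cells had higher mean UMIs than other pericytes of the enteric actin *Actg2* (log2 ratio 3.85 to 4.75), *Parm1* (2.10 to 2.81), the small heat shock protein *Hspb2* (1.99 to 3.19), the actin-filament protein *Nexn* (1.91 to 3.02), the myosin light chain *Myl9* (1.83 to 2.21) and the Notch ligand *Jag1* (1.30 to 1.55). Lower in contractile-high cells were *Emcn* (log2 ratio -2.41 to -1.47) and *Abcc9* (-1.20 to -0.44), the channel subunit that is typical of capillary pericytes. These are descriptions of cells of the same libraries, without a test. Across cells of 1 library, Pearson's r between *Acta2* and *Tagln* ranged from 0.527 to 0.792, and that between *Kcnj8* and *Acta2* from -0.354 to 0.0997, over 29 to 204 thinned cells that share a library. Cycling cells, with at least 3 thinned UMIs of *Top2a*, *Mki67*, *Ube2c* and *Cdk1*, were between 37.9% and 47.5% of each library. Fits without cycling cells instead left out members with at least 3 such UMIs before thinning, 47.9% to 63.8% of each library. Of 25 genes of the cell cycle list, edgeR called 1 (*Ung*, 4% of the list against 4.9% of all genes tested) for control XX against control XY. For dKO XY against control XY it called 0, against 0.0843% of all genes, with 1 at an unadjusted p under 0.05.

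Gene levels were compared after summing the UMIs of each gene over the pericytes of a library, with edgeR's quasi-likelihood test over 11857 genes, an adjusted p (Benjamini-Hochberg) under 0.05 counting as called. For control XX against control XY it called 581 genes, 4.9% of those tested, of which 211 (1.78%) were higher and 370 (3.12%) lower in control XX. The median log2 fold change over all genes tested was 0.00. Leaving out control XY replicate 2 gave 260 genes, leaving out control XX replicate 2 gave 326, and requiring that no endothelial gene be detected gave 41, from 220 cells. The level of each called gene was also set beside those of endothelial-gated and *Pdgfra*-gated cells of the same libraries, and a gene is called pericyte-led here where it was at least 2 times as high in pericytes as in both, in the group where it was high. Of the 211 genes higher in control XX, 59 (28.0%) were pericyte-led and 90 (42.7%) lay below another class, and of the 370 lower genes 60 (16.2%) were pericyte-led and 222 (60%) lay below another class. The pericyte levels that made the call also enter this measure, in the group where the gene was high, which favours pericyte-led. The pericyte-led share over all genes tested was not computed, so these shares are descriptions only. Neither class stands for Leydig or supporting cells, so genes of those cells, such as *Cyp11a1*, *Star* and *Inha*, count as pericyte-led by this measure.

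The smooth muscle apparatus was lower in ovarian pericytes. Of 16 contractile genes listed, 14 were tested, and 10 were called lower in control XX than in control XY, with 0 higher, where 3.12% of all genes were lower. The median log2 fold change of the list was -1.34 against 0.00 over all genes. *Acta2* (GRCm38 chromosome 19, 34241090 to 34255590, minus strand), which encodes smooth muscle actin, was at 1412 and 1463 CPM for control XY, 1574 and 1011 CPM for dKO XY, and 365 and 636 CPM for control XX. Both control XX libraries were below all XY libraries (log2 fold change -1.47 ± 0.27 SE, adjusted p = 0.00823, edgeR). *Tagln* (chromosome 9, 45929619 to 45936058, minus strand), encoding the actin-binding transgelin, was at 695 and 831 CPM for control XY, 825 and 552 CPM for dKO XY, and 103 and 229 CPM for control XX (log2 fold change -2.11 ± 0.32 SE, adjusted p = 0.00257). The groups of XX and XY libraries did not overlap for *Tagln* either.

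*Actg2* (chromosome 6, 83512905 to 83536265, minus strand), the actin of visceral smooth muscle, was at 57.2 and 79.8 CPM for control XY, 71.3 and 61.9 CPM for dKO XY, and 0 and 3.01 CPM for control XX (log2 fold change -4.98 ± 0.47 SE, adjusted p = 0.000118). *Myh11* (chromosome 16, 14194535 to 14291372, minus strand), the smooth muscle myosin heavy chain, was at 74.8 and 70.6 CPM for control XY, 74.01 and 78.1 CPM for dKO XY, and 11.1 and 28.3 CPM for control XX (log2 fold change -1.66 ± 0.28 SE, adjusted p = 0.0049). Genes of both motor and filament were therefore lower in each control XX library than in any XY library. *Myocd*, the coactivator of serum response factor that drives the smooth muscle program, was at 15.2 and 14.2 CPM for control XY, 13.8 and 12.2 CPM for dKO XY, and 1.39 and 1.81 CPM for control XX (log2 fold change -3.06 ± 0.47 SE, adjusted p = 0.00266). *Cnn1*, encoding calponin, had UMIs in all 4 XY libraries and 0 in control XX, which puts it at least 6.77-fold lower in control XX. Its floor, 3 counts over the group, is that of all such bounds here.

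The filament regulators *Tpm1* (-0.996 ± 0.15, adjusted p = 0.00235), *Cald1* (-0.78 ± 0.14, adjusted p = 0.00696) and *Smtn* (-0.93 ± 0.23, adjusted p = 0.036), and the actin nucleator *Lmod1* (-2.85 ± 0.54, adjusted p = 0.00893), also fell in control XX, given as log2 fold changes ± SE. The members not called were *Mylk* (-0.11 ± 0.19, adjusted p = 0.839), *Myl9* (-0.28 ± 0.18, adjusted p = 0.507), *Tpm2* and *Sncg*. *Mylk* is the kinase, and *Myl9* the light chain, through which calcium activates smooth muscle myosin. Between dKO XY and control XY, edgeR called 0 of the 14 genes, against 0.0843% of all genes tested, with 1 at an unadjusted p under 0.05 and a list median of -0.10. The 95% interval of that difference was -0.67 to 0.36 for *Acta2*, -0.72 to 0.43 for *Tagln* and -0.16 to 0.41 for *Tpm1* on the log2 scale. Against control XX, 10 of the 14 were higher in dKO XY (median 1.52), where 2.72% of all genes were higher. That comparison uses the same control XX libraries.

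The contractile-high class is cut on *Acta2*, *Myh11* and *Tagln* themselves, so leaving it out lowers their difference by construction and does not show where the fall lies. Fits without contractile-high cells left out members with at least 40 UMIs of these genes before thinning. That cut is not the same as the 20 thinned UMIs above. Without those members, 2 of the 14 genes were called. *Acta2* had a log2 fold change of -0.41, *Tagln* one of -0.20 and *Lmod1* one of 0.31, of the opposite sign. With no endothelial gene detected, 0 were called, with *Acta2* at -1.17 and *Tagln* at -1.22 in 7 and 18 control XX cells. Leaving out one library at a time gave between 7 and 10 called genes.

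Contractile genes are regulated through the CArG box, the site of serum response factor, which the promoters of several of them hold. A CArG-like box (CC, 6 bases of which at least 5 are A or T, GG, on either strand) was searched for in the 250 bases before the start of each gene in RefSeq promoters of GRCm38.p6. It was found in 2823 of 32851 promoters (8.59%), and in 2 of the 12 contractile genes with a promoter, *Acta2* and *Myl9*, of which the first fell in control XX and the second was not called. The windows are shown because both genes carry 2 boxes. Distances are from the RefSeq start. For *Acta2* that start lies downstream of the GENCODE start used for the coordinates above, so both *Acta2* windows lie within the gene as given there. The box is in capitals and each window runs 5′ to 3′ on the strand of its gene.
Acta2, chr19:34255438-34255467, minus strand, 84 to 75 bases before the RefSeq start: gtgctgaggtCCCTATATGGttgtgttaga
Acta2, chr19:34255388-34255417, minus strand, 34 to 25 bases before the RefSeq start: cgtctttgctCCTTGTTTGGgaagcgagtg
Myl9, chr2:156775293-156775322, plus strand, 161 to 152 bases before the RefSeq start: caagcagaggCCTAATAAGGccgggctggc
Myl9, chr2:156775355-156775384, plus strand, 99 to 90 bases before the RefSeq start: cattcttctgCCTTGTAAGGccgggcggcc
A match is a description of these letters and not of binding.

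**Figure D3:**
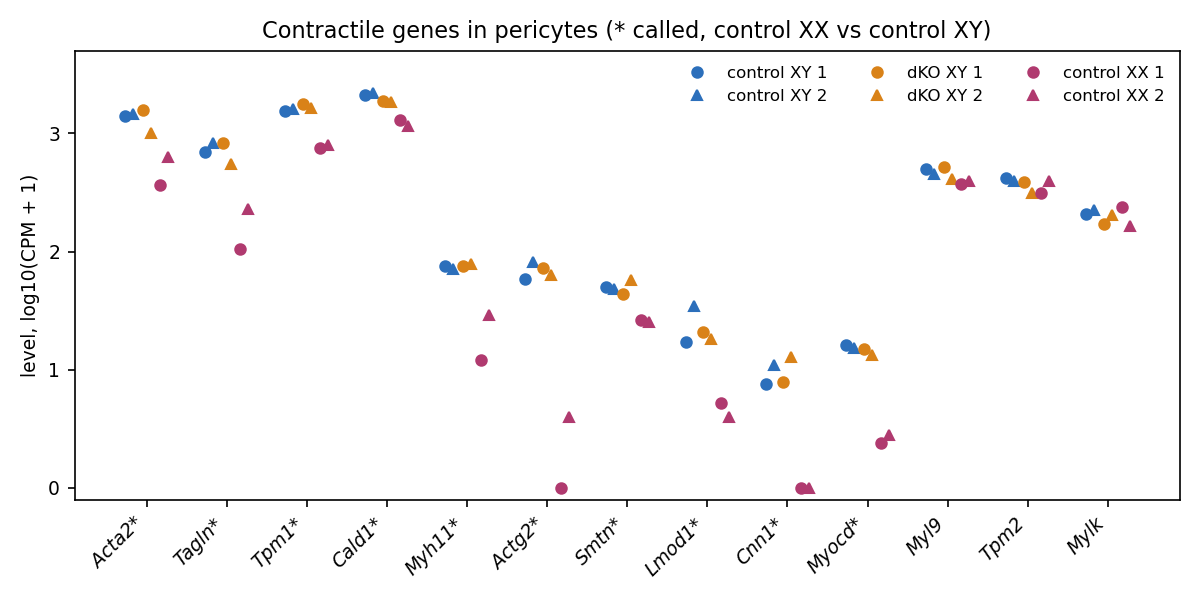
Level of 13 contractile genes (vertical axis, log10 of CPM + 1) in the pericytes of each library (points) of the 3 groups, with a star for genes called between control XX and control XY. The control XX points lie below the XY points for the starred genes, while *Myl9* and *Mylk* overlap.

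Hedgehog targets were also lower in control XX. Desert hedgehog from Sertoli cells signals to the interstitium through the receptor *Ptch1*, which is itself a target of the transcription factor *Gli1*. Of 10 genes of the pathway tested, 4 were lower and 1 higher in control XX (median log2 fold change -0.65), against 3.12% lower and 1.78% higher over all genes. *Ptch1* (chromosome 13, 63508328 to 63573598, minus strand) was at 80.5 and 84.1 CPM for control XY, 81.1 and 75.1 CPM for dKO XY, and 27.9 and 10.8 CPM for control XX (log2 fold change -2.27 ± 0.30 SE, adjusted p = 0.000942). *Gli1* (chromosome 10, 127329882 to 127341974, minus strand) was at 27.4 and 21.9 CPM for control XY, 15.8 and 24.2 CPM for dKO XY, and 0 and 3.01 CPM for control XX (log2 fold change -3.49 ± 0.56 SE, adjusted p = 0.00333). For both genes the XX and XY libraries did not overlap.

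The antagonist *Hhip* had 0 UMIs in both control XX libraries and 7.59 to 15.6 CPM in the XY libraries, at least 8.96-fold lower in control XX. *Gas1* (chromosome 13, 60174405 to 60177365, minus strand), a co-receptor for hedgehog ligands, went the other way, at 268 and 291 CPM for control XY, 188 and 182 CPM for dKO XY, and 936 and 842 CPM for control XX (log2 fold change 1.70 ± 0.15 SE, adjusted p = 8.93e-05). The transducers *Smo*, *Gli2* and *Gli3* and the co-receptors *Boc* and *Cdon* were not called. Those 5 act upstream of the genes that fell. Between dKO XY and control XY, edgeR called 0 of the 10 genes, against 0.0843% of all genes, with 2 at an unadjusted p under 0.05. The 95% intervals were -0.48 to 0.32 for *Ptch1* and -0.84 to 0.23 for *Gli1*.

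The receptors *Npr3*, *Agtr1a* and *Ednrb* for vasoactive signals were higher in ovarian pericytes. Of 14 such genes listed, 9 were tested, 4 were higher and 1 lower in control XX (1.78% and 3.12% over all genes), with a median log2 fold change of 1.31. *Npr3* (chromosome 15, 11839896 to 11907287, minus strand), the clearance receptor for natriuretic peptides, was at 42.6 and 38.97 CPM for control XY, 48.6 and 41.2 CPM for dKO XY, and 189.5 and 136 CPM for control XX (log2 fold change 2.00 ± 0.20 SE, adjusted p = 0.000137). The angiotensin receptor *Agtr1a* was at 27.1 and 21.5 CPM for control XY, 14.04 and 20.96 CPM for dKO XY, and 64.1 and 54.8 CPM for control XX (log2 fold change 1.31 ± 0.23 SE, adjusted p = 0.00656), and the endothelin receptor *Ednrb* at 8.40 and 7.68 CPM for control XY, 8.25 and 2.25 CPM for dKO XY, and 55.7 and 42.7 CPM for control XX (log2 fold change 2.61 ± 0.38 SE, adjusted p = 0.00227). All 3 genes were higher in each control XX library than in any XY library.

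The fourth receptor called higher, the prostacyclin receptor *Ptgir*, was at 0.271 and 0.562 CPM for control XY, 0.669 and 0 CPM for dKO XY, and 4.18 and 6.02 CPM for control XX. It rests on 13 UMIs in control XX, passed the filter on low counts through that group, and lost its call in 8 of 16 alternatives, so it adds little to the count of 4. *P2ry14*, a receptor for UDP sugars, fell instead and had 1 UMI in control XX (ratio 36.9, counting interval 6.52 to 1468, control XY over control XX). The second endothelin receptor, *Ednra*, was at 175 and 197 CPM for control XY, 138 and 163 CPM for dKO XY, and 144 and 108 CPM for control XX and was not called (-0.56 ± 0.18, adjusted p = 0.119). Of the 2 endothelin receptors, only *Ednrb* passed the test. Of the ion channel list, 1 of 9 tested genes was called (11.1%, against 4.9% over all genes), the calcium channel subunit *Cacna1c*, at 7.59 and 9.55 CPM for control XY, 8.92 and 10.7 CPM for dKO XY, and 29.3 and 21.1 CPM for control XX (log2 fold change 1.51 ± 0.29 SE, adjusted p = 0.00974). *Abcc9* was at 109 and 111 CPM for control XY, 66.4 and 107 CPM for dKO XY, and 322 and 149 CPM for control XX. It was not called between control XX and control XY (1.08 ± 0.29, adjusted p = 0.0626), and it was lower in dKO XY than in control XX (-1.43 ± 0.30, adjusted p = 0.0184).

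Among PDGF genes the receptor that defines pericytes was not called. *Pdgfrb* was at 330.5 and 354 CPM for control XY, 199 and 369 CPM for dKO XY, and 378 and 212 CPM for control XX, with a 95% interval of -0.77 to 0.33 for control XX against control XY. *Pdgfa*, the ligand of the other receptor, rose (0.72 ± 0.18, adjusted p = 0.0458), and *Pdgfra*, which marks the interstitial stroma, fell (-1.67 ± 0.35, adjusted p = 0.0162). *Pdgfra* was at 45.5 and 65.9 CPM for control XY, 47.3 and 58.4 CPM for dKO XY, and 6.97 and 22.3 CPM for control XX, so the 2 control XX libraries lay below the rest. Without cycling cells its log2 fold change was 0.36, the opposite sign, and *Pdgfa* had -0.25 with no endothelial gene detected.

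The 18 further pericyte markers had a median log2 fold change of 0.07 between control XX and control XY, with 3 called higher and 1 lower (22.2% called, against 4.9% over all genes). *Higd1b* was at 25.8 and 33.2 CPM for control XY, 14.3 and 22.95 CPM for dKO XY, and 68.3 and 82.5 CPM for control XX (log2 fold change 1.41 ± 0.24 SE, adjusted p = 0.00477). *Gja4*, the connexin 37 of vessel walls (1.58 ± 0.24, adjusted p = 0.00235), and *Ebf1* (0.72 ± 0.15, adjusted p = 0.0151) also rose, and *Heyl*, a Notch target of mural cells, fell. Between dKO XY and control XY, edgeR called 0 of the 18, where 0.0843% of all genes were called, and the median was -0.31. An unadjusted p under 0.05 was held by 4 of the 18, and by 651 of all 11857 genes.

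In the Notch pathway 2 of 11 tested genes (18.2%) were called, both lower in control XX, with a list median of -0.28, where 3.12% of all genes were lower. *Jag1* (chromosome 2, 137081456 to 137116644, minus strand), a ligand that mural cells and endothelium both make, was at 229 and 249 CPM for control XY, 215 and 180.4 CPM for dKO XY, and 66.9 and 113 CPM for control XX (log2 fold change -1.32 ± 0.23 SE, adjusted p = 0.00612). *Heyl* was at 279 and 315 CPM for control XY, 183 and 255 CPM for dKO XY, and 135 and 122 CPM for control XX (log2 fold change -1.19 ± 0.19 SE, adjusted p = 0.00348). Both genes were lower in each control XX library than in any XY library. The receptor *Notch3* was at 206 and 224 CPM for control XY, 159 and 185 CPM for dKO XY, and 157 and 126 CPM for control XX and was not called (-0.59 ± 0.17, adjusted p = 0.0805). The dKO XY values of *Notch3* lay between those of the controls.

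Of the TGF-beta superfamily, to which AMH and activins belong, 29 of 31 genes were tested, and 4 were higher and 5 lower in control XX (median -0.40), a called share of 31.0% beside the 4.9% over all genes. The rises included *Id2*, *Id3* and *Id4*, inhibitors of helix-loop-helix factors that BMP signals induce. *Id2* was at 27.4 and 42.9 CPM for control XY, 64.7 and 53.1 CPM for dKO XY, and 149 and 143 CPM for control XX (log2 fold change 2.07 ± 0.22 SE, adjusted p = 0.000262), and *Id3* and *Id4* rose too (log2 fold changes 0.995 ± 0.25, adjusted p = 0.0445, and 1.69 ± 0.34, adjusted p = 0.0122). *Id1* was not called (0.84 ± 0.29, adjusted p = 0.155). In dKO XY, *Id2* was above both control XY libraries and below both control XX libraries, without passing the test (0.73 ± 0.21, adjusted p = 0.417).

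The falls were in ligands. *Bmp4* was at 16.5 and 24.5 CPM for control XY, 23.2 and 18.7 CPM for dKO XY, and 8.36 and 5.42 CPM for control XX (log2 fold change -1.66 ± 0.38 SE, adjusted p = 0.0286). *Inhba*, the subunit of activin A, was at 87.8 and 105 CPM for control XY, 47.5 and 55.6 CPM for dKO XY, and 1.39 and 6.62 CPM for control XX (log2 fold change -4.23 ± 0.34 SE, adjusted p = 4.86e-05), and *Inha*, *Inhbb* (ratio 18.98, counting interval 3.30 to 759.8, control XY over control XX) and *Amh* were lower too. *Fst*, which binds activins and is made by granulosa cells, was the fourth rise (4.14 ± 0.81, adjusted p = 0.011). *Inha*, *Amh* and *Fst* are made in quantity by supporting cells, and *Inhba* by interstitial cells. The summed levels of 4 marker lists of such cells in the pericytes are given further on, and their part in these differences was not tested.

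Pericytes and endothelium share a basement membrane, and 3 of 15 of its genes (20%) were called, all lower in control XX (median -0.56), beside 3.12% of all genes. Fibronectin, *Fn1*, was at 249.7 and 310.4 CPM for control XY, 217 and 261 CPM for dKO XY, and 83.6 and 61.99 CPM for control XX (log2 fold change -1.95 ± 0.20 SE, adjusted p = 0.000212). The laminin chain *Lama2* was at 43.9 and 46.5 CPM for control XY, 22.7 and 28.7 CPM for dKO XY, and 11.1 and 9.63 CPM for control XX (log2 fold change -2.11 ± 0.26 SE, adjusted p = 0.000766), and *Lamc3* had 0 UMIs in control XX (at least 4.48-fold lower). The collagen IV chains *Col4a1* (-0.68 ± 0.18, adjusted p = 0.0527) and *Col4a2* (-0.66 ± 0.19, adjusted p = 0.0851) had lower values but were not called. The remaining laminins, nidogens, *Hspg2* and *Sparc* were not called either.

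Of 14 interstitial matrix genes, 4 were lower and 1 higher in control XX (median -0.59), together 35.7% of the list beside 4.9% of all genes. *Col3a1* was at 1473 and 1587 CPM for control XY, 1092 and 1488 CPM for dKO XY, and 719 and 778 CPM for control XX (log2 fold change -0.997 ± 0.17 SE, adjusted p = 0.0054). *Col6a1* (-1.20 ± 0.20, adjusted p = 0.00472), the microfibril protein *Fbn1* (-1.43 ± 0.22, adjusted p = 0.00265) and the proteoglycan *Bgn* (-0.62 ± 0.15, adjusted p = 0.0419) fell as well. *Postn*, encoding periostin, rose, at 50.4 and 58.5 CPM for control XY, 48.8 and 54.6 CPM for dKO XY, and 238 and 153 CPM for control XX (log2 fold change 1.84 ± 0.20 SE, adjusted p = 0.000318). All XX and XY libraries were apart for *Postn*, *Col3a1* and *Fbn1*.

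Of 11 angiogenic factors, 4 (36.4%) were called, all lower in control XX (median -0.42), beside 3.12% of all genes. *Cxcl12*, a chemokine that guides endothelial and germ cells, was at 239 and 219 CPM for control XY, 93.2 and 149 CPM for dKO XY, and 27.9 and 37.9 CPM for control XX (log2 fold change -2.70 ± 0.26 SE, adjusted p = 0.000135). *Figf*, also called VEGF-D (-1.39 ± 0.35, adjusted p = 0.0419), and the guidance factor *Sema3c* (-2.64 ± 0.39, adjusted p = 0.00231) fell, and *Hgf* had 1 UMI in control XX (ratio 31.1, counting interval 5.47 to 1239, control XY over control XX). *Vegfa*, *Angpt1* and *Angpt2* were not called. In dKO XY, *Cxcl12* lay between the 2 controls and was not called against control XY (-0.93 ± 0.21, adjusted p = 0.192).

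Transcription factors of the gonad differed in both directions, with 2 of 12 tested genes higher and 4 lower (median -0.25), a called share of 50% against 4.9% over all genes. The orphan receptor *Nr2f1* was at 88.4 and 85.99 CPM for control XY, 71.3 and 90.3 CPM for dKO XY, and 239.7 and 156 CPM for control XX (log2 fold change 1.18 ± 0.20 SE, adjusted p = 0.0054), and *Wt1* rose too (1.09 ± 0.25, adjusted p = 0.0258). *Lhx9* (-2.91 ± 0.24, adjusted p = 4.86e-05), *Gata4* (-1.73 ± 0.24, adjusted p = 0.00135) and *Nr5a1* (-2.17 ± 0.44, adjusted p = 0.0149) fell. *Nr2f2*, *Tcf21* and *Maf* were not called. These 3 factors are ones that interstitial or supporting cells also express.

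The largest rises, counting called genes whose mean log2 CPM was 5 or more, were in *Camk2n1*, *Id2*, *Atf3*, *Prrx1*, *Npr3*, *Hoxb2*, *Postn* and *Tnfrsf21*. *Camk2n1*, an inhibitor of CaM kinase II, was at 43.6 and 48.7 CPM for control XY, 44.8 and 47.9 CPM for dKO XY, and 229 and 221 CPM for control XX (log2 fold change 2.31 ± 0.16 SE, adjusted p = 1.89e-05). *Prrx1*, a homeobox factor of mesenchyme, was at 70.2 and 67.6 CPM for control XY, 65.99 and 60.4 CPM for dKO XY, and 330.3 and 222 CPM for control XX (log2 fold change 2.01 ± 0.19 SE, adjusted p = 0.000131), and *Hoxb2* at 20.9 and 24.2 CPM for control XY, 24.1 and 23.7 CPM for dKO XY, and 98.9 and 79.4 CPM for control XX (log2 fold change 1.98 ± 0.19 SE, adjusted p = 0.00012). Both control XX libraries were above all XY libraries for these 3 genes. The death receptor *Tnfrsf21* was at 18.98 and 22.7 CPM for control XY, 17.2 and 25.4 CPM for dKO XY, and 87.8 and 63.2 CPM for control XX (log2 fold change 1.84 ± 0.23 SE, adjusted p = 0.000845). *Serpine2*, a protease inhibitor, was at 159 and 211 CPM for control XY, 125 and 118 CPM for dKO XY, and 523 and 599 CPM for control XX (log2 fold change 1.64 ± 0.18 SE, adjusted p = 0.000339), and the chemokine *Ccl11* at 52.3 and 53.6 CPM for control XY, 53.1 and 36.9 CPM for dKO XY, and 177 and 141 CPM for control XX (log2 fold change 1.60 ± 0.21 SE, adjusted p = 0.00087). Of the genes in this paragraph, *Prrx1*, *Npr3*, *Hoxb2*, *Postn*, *Tnfrsf21*, *Serpine2* and *Ccl11* were pericyte-led.

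Pericyte-led genes also fell in control XX. *Sgip1* was at 82.95 and 71.00 CPM for control XY, 58.6 and 59.9 CPM for dKO XY, and 2.79 and 5.42 CPM for control XX (log2 fold change -4.01 ± 0.31 SE, adjusted p = 3.49e-05), and the adenosine receptor *Adora2b* at 51.2 and 46.3 CPM for control XY, 34.8 and 40.2 CPM for dKO XY, and 11.1 and 9.03 CPM for control XX (log2 fold change -2.28 ± 0.26 SE, adjusted p = 0.000405). *Reln*, encoding the secreted protein reelin, was at 121 and 135 CPM for control XY, 102 and 93.6 CPM for dKO XY, and 44.6 and 38.5 CPM for control XX (log2 fold change -1.61 ± 0.19 SE, adjusted p = 0.000507). *Cadm1*, an adhesion molecule, was at 58.01 and 64.6 CPM for control XY, 41.5 and 57.1 CPM for dKO XY, and 4.18 and 12.6 CPM for control XX (log2 fold change -2.59 ± 0.33 SE, adjusted p = 0.00087) in pericytes and at 14.5 and 15.6 CPM for control XY, 11.8 and 17.1 CPM for dKO XY, and 86.96 and 86.5 CPM for control XX in *Pdgfra*-gated cells, where it was higher in control XX. The sign of its difference was thus opposite in the 2 classes.

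**Figure D4:**
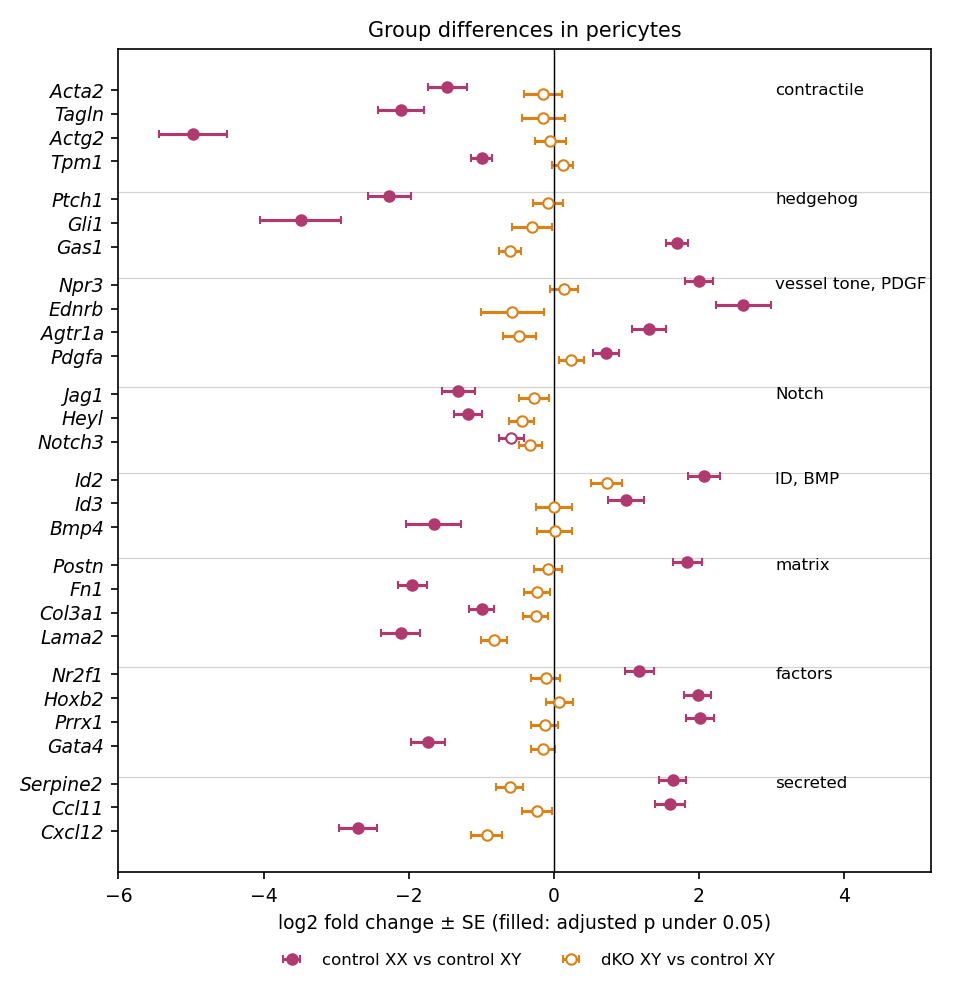
Log2 fold change ± SE (horizontal axis) of 28 genes (vertical axis, by group) in pericytes for control XX against control XY and for dKO XY against control XY. Filled points have an adjusted p under 0.05. Contractile genes lie left of 0 for control XX (*Acta2* -1.47) and near 0 for dKO XY (*Acta2* -0.15).

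Whether these differences were unlike those in other cells of the same libraries was tested as an interaction, with the library as a block. Against endothelial-gated cells, 313 of 12807 genes were called (2.44%), and against *Pdgfra*-gated cells 893 of 15069 (5.93%). Of the 581 genes called for control XX against control XY, 57 had a log2 fold change that differed from those of both other classes, toward the sign it had in pericytes, 20 of them higher and 37 lower in control XX. The difference in the other class may be smaller or of the opposite sign. The 581 genes were picked on the same pericyte sums that enter the interaction, which favours the sign in pericytes. The log2 fold change of *Npr3* in pericytes minus that in endothelial-gated cells was 2.65 ± 0.47 (adjusted p = 0.00818), and minus that in *Pdgfra*-gated cells it was 4.38 ± 0.28 (adjusted p = 1.32e-08). *Serpine2* gave 2.43 ± 0.22 (adjusted p = 4.93e-05) and 1.54 ± 0.12 (adjusted p = 2.17e-07), *Nr2f1* 1.70 ± 0.24 (adjusted p = 0.00185) and 2.12 ± 0.20 (adjusted p = 2.18e-06), and *Tnfrsf21* 2.42 ± 0.29 (adjusted p = 0.000498) and 1.93 ± 0.21 (adjusted p = 1.2e-05). All 4 were called higher in control XX pericytes. In *Pdgfra*-gated cells the log2 fold changes were of the opposite sign for *Npr3* (-2.48, adjusted p = 0.000369) and *Nr2f1* (-1.04, adjusted p = 0.00437), and those of *Serpine2* (0.04) and *Tnfrsf21* (-0.12) were not called. In endothelial-gated cells they were -0.66 for *Npr3*, -0.50 for *Nr2f1*, -0.84 for *Serpine2* and -0.59 for *Tnfrsf21*, with adjusted p between 0.104 and 0.554 (edgeR).

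Of the contractile genes, *Tpm1* alone had a log2 fold change in pericytes that was lower than in both classes by this test (-0.66 ± 0.12, adjusted p = 0.00848 and -0.86 ± 0.08, adjusted p = 1.55e-06). *Acta2* (-1.11 ± 0.12, adjusted p = 1.24e-05), *Tagln* (-2.29 ± 0.17, adjusted p = 1.32e-07), *Actg2* (-3.49 ± 0.58, adjusted p = 0.000928), *Cald1* (-0.42 ± 0.08, adjusted p = 0.003), *Myh11* (-1.58 ± 0.36, adjusted p = 0.0122) and *Myocd* (-3.32 ± 0.49, adjusted p = 0.000316) had lower log2 fold changes than in *Pdgfra*-gated cells, with no called difference from endothelial-gated cells (1.03 ± 0.34, adjusted p = 0.155 for *Acta2*). In endothelial-gated cells *Acta2* was at 43.1 and 79.2 CPM for control XY, 51.8 and 46.2 CPM for dKO XY, and 4.08 and 18.3 CPM for control XX. *Ptch1* fell further than in endothelial-gated cells (-1.31 ± 0.30, adjusted p = 0.0325) and less than in *Pdgfra*-gated cells (1.69 ± 0.25, adjusted p = 0.000345). *Cxcl12* did likewise (-1.35 ± 0.21, adjusted p = 0.00283 and 1.13 ± 0.21, adjusted p = 0.00269). *Gas1* had a higher log2 fold change than in endothelial-gated cells (1.72 ± 0.22, adjusted p = 0.000855), and its difference from *Pdgfra*-gated cells was not called (0.16 ± 0.18, adjusted p = 0.728).

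**Figure D5:**
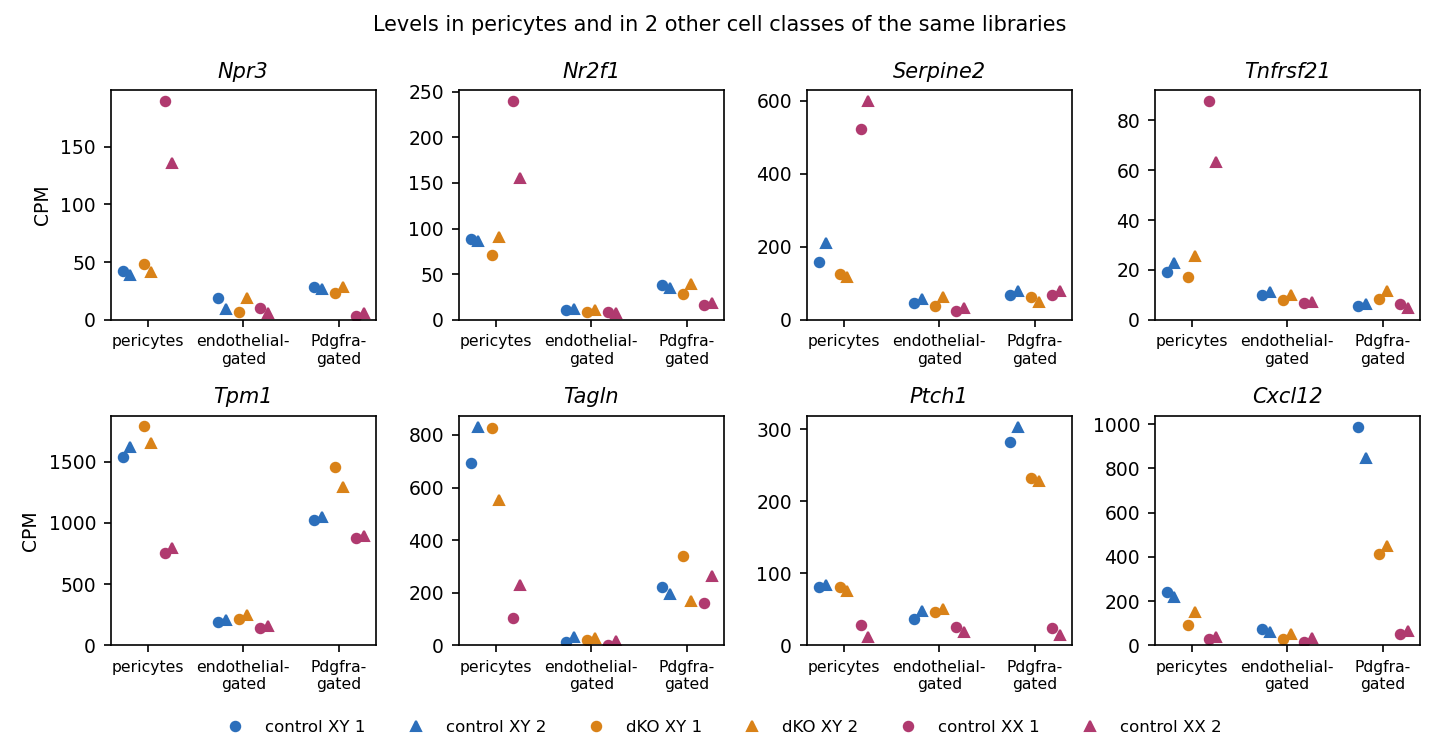
Level in CPM (vertical axes) of *Npr3*, *Nr2f1*, *Serpine2*, *Tnfrsf21*, *Tpm1*, *Tagln*, *Ptch1* and *Cxcl12* in each library (points) of the 3 groups, for pericytes, endothelial-gated and *Pdgfra*-gated cells. *Npr3* is at 136 and 190 CPM in control XX pericytes and at 39.0 to 48.6 in XY pericytes.

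Transcripts of other gonadal cells were present in the members. The 5 Leydig markers summed to 710.0 and 2072 CPM in control XY pericytes, 2058 and 956 CPM in dKO XY, and 5.57 and 1.81 CPM in control XX. In control XX, 1 and 2 of the 5 markers had any UMI, and in each XY library all 5 had. Of the 750 members, 35 held at least 10 Leydig UMIs, 25 of them with a high doublet score, and these 35 carried 74.7% of the *Ren1* UMIs of all members. *Cyp11a1* (at least 398-fold lower), *Ren1* (at least 146-fold), *Insl3* (at least 57-fold) and *Prlr* (at least 42.2-fold) had 0 UMIs in control XX, and all 5 Leydig markers were called lower (3.12% of all genes). These genes led the falls together with *Cyp17a1*, *Cst9*, *Defb19* and *Sostdc1*. *Ren1*, *Prlr* and *Defb19* are on no marker list used here, and which cells their transcripts came from was not tested. *Ren1*, renin, was at 101 and 242 CPM for control XY, 264 and 48.4 CPM for dKO XY, and 0 and 0 CPM for control XX. Without these 35 members 561 genes were called for control XX against control XY, and 503 without the 89 members that held 10 or more UMIs of any of 6 lists.

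Sertoli markers summed to 201 and 142 CPM in control XY, 258 and 206 CPM in dKO XY, and 26.5 and 18.1 CPM in control XX, with 4 of 7 tested genes called lower in control XX (3.12% of all genes). Granulosa markers summed to 42.6 and 39.0, 172 and 182, and 255 and 89.1 CPM, with 4 of 7 called higher for control XX and 2 of 7 for dKO XY, each against control XY (1.78% and 0.0506% of all genes). Germ cell markers summed to 10.6 and 5.25, 66.0 and 111, and 15.3 and 108 CPM, with 3 of 6 called higher for either group against control XY (the same shares of all genes). The 2 control XX libraries were apart in these sums, which rest on few members. In control XX replicate 2, 1 of 62 members held 88.3% of the germ cell UMIs, and 1 held 54.7% of the granulosa UMIs. In control XX replicate 1, 4 of 29 members held 68.9% of the granulosa UMIs. The median member of both libraries held 0 germ cell UMIs. In dKO XY, 6 of 167 and 8 of 138 members held 52.0% and 61.9% of the germ cell UMIs. Interstitial markers summed to 587 and 594, 482 and 485, and 123 and 489.9 CPM, with 3 of 6 lower in control XX (3.12% of all genes). Endothelial markers outside the rule summed to 132 and 124, 119 and 143, and 223 and 178 CPM. Of 5 tested, *Emcn* was called higher and *Cdh5* lower in control XX (1.78% and 3.12% of all genes). Immune markers ranged from 1.39 to 80.5 CPM, erythroid markers from 19.3 to 206, epithelial from 1.08 to 12.5, mesonephric from 1.63 to 18.1 and Schwann and neural markers from 40.7 to 135. Of these 5 lists, *Epcam* (1 of 1 mesonephric gene tested) and *Fabp7* (1 of 2 Schwann and neural genes tested) were called against control XY. Both were higher in control XX, as were 1.78% of all genes. Called were 0 of 2 immune and 0 of 4 erythroid genes, and 0 epithelial genes were tested. *Fabp7* was pericyte-led and rose in control XX (1.35 ± 0.21, adjusted p = 0.00266), with a log2 fold change of -0.35 when no endothelial gene was detected. The part of these transcripts in the differences was not tested beyond leaving out the members named above.

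Genes that respond to tissue dissociation also differed in level between libraries. Immediate early and heat shock genes summed to 11085 and 10939 CPM in control XY pericytes, 9661 and 5157 CPM in dKO XY, and 14419 and 13336 CPM in control XX. Of 13 such genes, *Atf3*, *Dnajb1* and *Zfp36* were called higher in control XX than in control XY (23.1%, against 1.78% of all genes). Between dKO XY and control XY, 0 of 13 were called by edgeR, against 0.0843% of all genes (median -0.56, with 6 at an unadjusted p under 0.05). The log2 fold change of *Dnajb1*, a chaperone, was higher in pericytes than in the endothelial-gated and *Pdgfra*-gated cells (by 0.81 ± 0.19, adjusted p = 0.0355 and 0.80 ± 0.15, adjusted p = 0.00321). In pericytes the second dKO XY library had the lowest sum and control XX the highest 2. In *Pdgfra*-gated cells the sums were 11089 and 11002 CPM (control XY), 10479 and 4025 (dKO XY), and 9360.5 and 10951.5 (control XX). In endothelial-gated cells they were 6436 and 7184, 6199 and 3251, and 6060 and 6840 CPM, in the same order. The second dKO XY library was thus lowest in each class, while control XX was highest in pericytes only. Genes of this list respond to tissue dissociation, and their part in the other differences was not tested.

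Respiratory and metabolic genes differed in a few cases. Of 8 tested isoforms of the respiratory chain, 1 (12.5%) was called, *Higd1b*, and of 12 hypoxia and glycolysis genes 2 (16.7%) were, against 4.9% over all genes tested. *Ldha* (0.79 ± 0.20, adjusted p = 0.0419) and *Ddit4* (1.38 ± 0.34, adjusted p = 0.0405) rose in control XX. In the WNT list *Nkd1*, a feedback inhibitor, rose (1.35 ± 0.27, adjusted p = 0.0128), and *Wnt5a* fell (-1.37 ± 0.24, adjusted p = 0.00566), and the other 12 of the 14 were not called (14.3% called, against 4.9% over all genes). Without cycling cells *Wnt5a* had a log2 fold change of 0.043. Of 6 genes of the steroid and retinoid response, 1 was called (16.7%, against 4.9% over all genes). *Cyp26b1*, the enzyme that breaks down retinoic acid, was lower in control XX (ratio 13.8, counting interval 3.74 to 116, control XY over control XX). The estrogen receptor *Esr1* (0.47 ± 0.40, adjusted p = 0.643) was not called.

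Between dKO XY and control XY pericytes, 10 genes were called by edgeR, 0.0843% of the 11857 tested, and 651 had an unadjusted p under 0.05. Of these 10, dKO XY had 6 (0.0506%) higher and 4 (0.0337%) lower. DESeq2 called 14. *Apold1*, a gene of activated endothelium, was at 45.8 and 50.2 CPM for control XY, 22.1 and 15.47 CPM for dKO XY, and 113 and 126 CPM for control XX (log2 fold change -1.35 ± 0.21 SE, adjusted p = 0.0406). Both dKO XY libraries were below both control XY libraries, and the gene was pericyte-led. *Amh*, another of the 4 falls, is the deleted gene (44.2 and 44.2 CPM for control XY, 7.36 and 8.73 CPM for dKO XY, and 0 and 0 CPM for control XX).

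The 6 rises were mainly in genes of granulosa and germ cells. *Kctd14* was at 30.4 and 18.4 CPM for control XY, 118 and 128 CPM for dKO XY, and 94.8 and 33.7 CPM for control XX (log2 fold change 2.36 ± 0.33 SE, adjusted p = 0.0232), and *Gng13* at 0.813 and 1.69 CPM for control XY, 16.3 and 12.97 CPM for dKO XY, and 26.5 and 12.6 CPM for control XX (log2 fold change 3.44 ± 0.43 SE, adjusted p = 0.0161), and both are on the granulosa marker list. The germ cell genes *Dppa3* (3.25 and 0.937 CPM for control XY, 23.4 and 30.9 CPM for dKO XY, and 1.39 and 0.602 CPM for control XX, log2 fold change 3.79 ± 0.39, adjusted p = 0.00332) and *Dppa5a* (5.10 ± 0.73, adjusted p = 0.0267) rose. *Dazl*, also of germ cells, had 3 UMIs in control XY (ratio 63.4, counting interval 21.4 to 310.4, dKO XY over control XY), and so had *Podxl*, which encodes a sialomucin (ratio 24.1, counting interval 7.90 to 119.7). None of the 6 was pericyte-led. Of the 6, 5 are members of the granulosa or germ cell lists and are part of the sums given above. The part of transcripts of other cells in these rises was not tested.

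The number of genes called in dKO XY moved with the libraries and cells used. It was 0 without control XY replicate 2, 2 without control XY replicate 1, 53 without control XX replicate 1, and 1 without the members of high doublet score. The log2 fold change of *Apold1* in pericytes minus that in endothelial-gated cells was -0.87 ± 0.17 (adjusted p = 0.0641), which was not called, and minus that in *Pdgfra*-gated cells it was -1.67 ± 0.25 (adjusted p = 0.00277), which was called. Over all genes 15 of 12807 (0.117%) and 130 of 15069 (0.863%) were called in these interactions.

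Against control XX, 497 genes were called in dKO XY pericytes, 4.19% of those tested, 322 (2.72%) higher and 175 (1.48%) lower. Of the lower genes, 61 (34.9%) were pericyte-led and 59 (33.7%) lay below another class. Of the higher ones, 28 (8.70%) were pericyte-led and 241 (74.8%) lay below another class. These shares too are descriptions, with no share over all genes to set beside them. *Camk2n1* (-2.31 ± 0.16, adjusted p = 2.41e-05), *Gas1* (-2.30 ± 0.16, adjusted p = 2.41e-05), *Serpine2* (-2.25 ± 0.19, adjusted p = 5.49e-05), *Prrx1* (-2.13 ± 0.19, adjusted p = 0.000101), *Higd1b* (-2.09 ± 0.25, adjusted p = 0.000607) and the lectin *Clec2d* (-2.01 ± 0.18, adjusted p = 8.06e-05) were among the largest falls, along with *Apold1* (-2.71 ± 0.21, adjusted p = 3.64e-05) and *Atf3* (-2.31 ± 0.52, adjusted p = 0.0279). *Apold1* was lowest in dKO XY, highest in control XX and between them in control XY. *Clec2d* was at 45.8 and 50.02 CPM for control XY, 26.98 and 29.4 CPM for dKO XY, and 119.8 and 104 CPM for control XX.

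The largest rises against control XX were in *Cyp11a1*, *Ren1*, *Cst9*, *Insl3*, *Cyp17a1*, *Prlr*, *Defb19* and *Star*. Of these, *Cyp11a1*, *Insl3*, *Cyp17a1* and *Star* are on the Leydig list and *Cst9* is on the Sertoli list, while *Ren1*, *Prlr* and *Defb19* are on no marker list. *Reln* (1.22 ± 0.19, adjusted p = 0.0035) and the fatty acid binding protein *Fabp5* (1.53 ± 0.24, adjusted p = 0.00308) were pericyte-led rises. For vasoactive receptors 1 of 9 was higher and 5 lower in dKO XY (2.72% and 1.48% of all genes), including *Npr3* (-1.86 ± 0.20, adjusted p = 0.000239) and *Ednrb* (-3.18 ± 0.41, adjusted p = 0.00101). The number of members in control XX was the lowest of the groups.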

How the data were processed

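Gonads were dissociated, cryopreserved, thawed and sequenced on the 10x Genomics platform, with 2 biological replicates per genotype, per the methods of the study, where a gonad pair of an animal was kept together. How many animals entered a library is not given in the sources used here. The files deposited by the authors give each library as a matrix of UMI counts, with no normalization, by gene symbol and barcode. Per the methods, Cell Ranger v3.0 made them and swapped barcodes were corrected, and the submitters' notes name mm10 and Seurat 4.0. The 6 libraries list 23157 to 24248 genes and 68064 barcodes in all, and 150425497 to 221675316 UMIs of kept cells except for control XX replicate 2, with 118475468.

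UMIs of members were summed per library, and CPM is their share of all pericyte UMIs of that library, times 1000000. The 10 rule genes were left out of the tests. Differences were fitted with edgeR 4.0.16 (R 4.3.3, limma 3.58.1, filterByExpr, TMM, glmQLFit and glmQLFTest) over all 6 libraries with group as the only factor, and adjusted by Benjamini-Hochberg. The study's own Wilcoxon tests over cells were not used, since cells are not replicates. SE was taken as log2 fold change over root F, and 95% intervals are its normal intervals. Interactions had library as a block. Shares used two-sided exact permutation tests. Doublets were scored with Scrublet in scanpy 1.11.5, whose automatic threshold marked 0 to 129 cells per library, so that the top 8% was used and left out only as an alternative. On simulated counts over 11802 genes, edgeR recovered 83% of changes of log2 1 for dKO XY against control XY and 64% for control XX against control XY, and 100% and 94% of changes of log2 2. It also made 11 and 3 false calls in these 2 comparisons. The interaction against endothelial-gated cells recovered less, 43% and 38% of changes of log2 1 and 95% and 85% of log2 2. DESeq2 recovered 54% and 40% of changes of log2 1. The interaction against *Pdgfra*-gated cells was not simulated. The changes were set only in genes of at least 10 CPM, so recovery at lower levels was not measured. DESeq2 1.42.0 was an alternative, as were other filters, normalizations, thresholds of the rule and left-out libraries or cells.

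Members and lists were chosen with earlier results of these data known. Named genes are called or defining members of the lists, the 8 largest rises and falls per comparison at a mean log2 CPM of at least 5, and the 20 top ratios. Some genes that this rule names are not reported here. The pericyte-led genes were picked with their values known. GENCODE M21 (GRCm38) gave the coordinates, and promoter windows are from RefSeq (GRCm38.p6).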

Additional observations from a re-analysis of the deposited data

Results flagged for a closer look

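The differences between control XX and control XY of 14 genes were not the same in pericytes as in another cell class of the same libraries, by a test of the interaction in edgeR. All 14 were picked from listed or top-ranked genes called in pericytes of these libraries. *Acta2*, *Actg2*, *Cald1*, *Myh11*, *Myocd* and *Tagln* were taken on a call against *Pdgfra*-gated cells alone, with no called difference from endothelial-gated cells. The others were called against both classes, a rule that 57 called genes met. Against endothelial-gated cells, the log2 fold change in pericytes minus that in the other class was 2.65 for *Npr3*, 2.43 for *Serpine2*, 2.42 for *Tnfrsf21*, 1.70 for *Nr2f1*, 1.46 for *Pdgfa* and 0.809 for *Dnajb1*, all higher in control XX. It was -2.63 for *Cadm1* and -0.658 for *Tpm1*. Against *Pdgfra*-gated cells, it was 4.38 for *Npr3*, 2.12 for *Nr2f1*, 1.93 for *Tnfrsf21*, 1.87 for *Pdgfa*, 1.54 for *Serpine2* and 0.797 for *Dnajb1*. The genes with a lower value in control XX were *Cadm1* at -5.21, *Actg2* at -3.49, *Myocd* at -3.32, *Tagln* at -2.29, *Myh11* at -1.58, *Acta2* at -1.11, *Tpm1* at -0.859 and *Cald1* at -0.421.

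For *Npr3*, the adjusted p of the interaction was 0.00818 against endothelial-gated and 1.32e-08 against *Pdgfra*-gated cells. For *Cadm1*, they were 0.00414 and 1.84e-10.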

How the results depend on the processing

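Control XX rests on 29 and 62 pericytes, and 2 libraries per group cannot give p under 0.333 for shares. Some members held UMIs of marker genes of other gonadal cells, and the source of these was not tested. The number of genes called between dKO XY and control XY (10) was 233 with no filter on low counts, 55 with the 2 groups alone, 21 with the rule on thinned cells, 23 with *Rgs5* of at least 10 UMIs, 16 without contractile-high cells and 3 under 10% mitochondrial UMIs. It was 1 with no endothelial gene detected, 1 without high doublet scores and 1 without cycling cells. Of its 10 genes, DESeq2 called 7. Between control XX and control XY (581) it was 1065 with no filter, 41 with no endothelial gene detected and 266 without cycling cells, and between dKO XY and control XX (497) 973, 30 and 159. Fewer genes or cells entered some of these fits, and the cause was otherwise not tested. Leaving out 1 library at a time gave 0 to 53, 260 to 702 and 264 to 561 genes, with the fewest without control XY replicate 2 for the first pair and without control XX replicate 2 for the last.

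Called contractile genes (10 in each comparison with control XX) were 0 and 0 with no endothelial gene detected and 2 and 2 without contractile-high cells, and 6 between dKO XY and control XX without cycling cells. Leaving out 1 library gave 7 to 10 and 5 to 8. With no filter, interactions gave 173 (dKO XY against control XY) and 650 genes (control XX against control XY) for endothelial-gated cells and 344 (dKO XY) for *Pdgfra*-gated cells. Leaving out 1 library gave 0 to 105 and 93 to 534 for endothelial-gated, and 172 to 301 and 488 to 1251 for *Pdgfra*-gated cells. The share difference of dKO XY from control XY was 0.0725 percentage points with no endothelial gene detected, and ranged from -0.263 to 0.181 when 1 library was left out (0.181 without control XY replicate 2 and 0.145 without dKO XY replicate 1). Those of control XX from control XY and of dKO XY from control XX kept their sign, at -1.73 to -0.979 and 0.938 to 1.69.

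Between control XX and control XY, single genes reversed as follows, in log2. *Dppa5a* ranged from -4.10, without control XX replicate 2, to 5.17 when 1 library was left out, and was -0.070 on thinned cells, *Fabp3* 0.12 on thinned cells and 0.048 without members with other types' UMIs, *Fabp7* -0.35 and *Pdgfa* -0.25 with no endothelial gene, *Lmod1* 0.31 without contractile-high cells, and *Pdgfra* 0.36 and *Wnt5a* 0.043 without cycling cells. Between dKO XY and control XX, *Col6a1* was -0.10, *Fabp7* 0.25 and *Sycp3* 0.18 with no endothelial gene, *Sycp3* 0.11 without contractile-high cells, and *Pdgfra* -0.24 and *Wnt5a* -0.16 without cycling cells.

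Replicate numbers do not mark shared animals. Deviations of same-numbered libraries correlated at 0.0413, -0.105 and -0.126 over 11864 genes. Each group gives a single difference between its 2 libraries, so these correlations cannot tell whether same-numbered libraries shared a batch. With the replicate number as a block, 11, 473 and 414 genes were called. With the 2 numbers of control XX exchanged, added after seeing the data, they were 13, 668 and 623.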
